A study of Homo sapiens with 4 samples.

Results

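The 34 genes described here encode the protein-folding machinery of the endoplasmic reticulum (ER) and the unfolded protein response, in SNU638 cells with and without knockdown of ACTL6A. The members were taken by name, not by their measured values, and every probe set annotated with exactly 1 of their symbols was used. This gave 81 of the 54613 non-control probe sets on the array. A total of 33 genes had such a probe set and 32 were bright enough to be tested, among 12286 genes tested in all. They fall into 13 chaperones and co-chaperones, 6 disulfide isomerases and oxidases, 4 stress sensors and their transcription factor, and 11 genes of ER degradation. The only probe set of SYVN1, the ubiquitin ligase of ER degradation, also carries a microRNA symbol and was left out, and 2 probe sets of HSP90B1 were left out likewise. DERL3, a channel component of ER degradation, read 5.91 and 5.34 in scramble and 5.18 and 5.73 in sh-ACTL6A, with a mean below the log2 signal of 5.63 required for testing.

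SNU638 is an established human gastric cancer cell line. The cells carried either a scrambled short hairpin RNA (scramble, 2 arrays) or a hairpin against ACTL6A (sh-ACTL6A, 2 arrays). The paper's methods place the ACTL6A hairpins in pLKO.1. They describe lentiviral infection and puromycin selection without limiting these to the knockdown cells. ACTL6A is an actin-related subunit of several chromatin-remodelling and histone acetylation complexes. The labels do not say which hairpin each sh-ACTL6A array carried or whether replicates were grown separately. The p-values therefore rest on a spread that may be technical.

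Proteins that enter the secretory pathway are folded in the ER by chaperones such as BiP (HSPA5) and by the calnexin and calreticulin lectin cycle, while disulfide isomerases form and rearrange their disulfide bonds. When unfolded proteins build up, the membrane sensors IRE1 (ERN1), PERK (EIF2AK3) and ATF6 signal to the nucleus, where spliced XBP1 and cleaved ATF6 switch on chaperone and degradation genes. Proteins that fail to fold are recognised by lectins such as EDEM1 and OS9, drawn back across the membrane and ubiquitinated for the proteasome. Secretory epithelia, to which gastric cells belong, depend on this machinery for their heavy protein output.

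The promoters of this family are known for shared ER stress response elements, which are shown here from the genome sequence, without use of the arrays. Because the elements were already known from this family, their shares below are no independent test of a link between the members. The search used RefSeq promoters of GRCh38.p14 from 250 bases before to 50 after each start, on both strands. Promoters were found for 31 of the 34 members, and none was listed for PDIA3, DERL1 or DERL3. The ER stress response element (ERSE) was searched as CCAAT and CCACG separated by any 9 bases. In the matches below, capitals mark the CCAAT and CCACG ends:
CALR: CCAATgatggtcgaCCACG
CANX: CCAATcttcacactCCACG
CRELD2: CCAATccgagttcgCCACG
ERO1B: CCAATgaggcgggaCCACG
HSP90B1, first match: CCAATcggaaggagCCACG
HSP90B1, second match: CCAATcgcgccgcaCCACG
HSPA5: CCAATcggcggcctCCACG
PDIA6: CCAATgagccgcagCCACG
XBP1: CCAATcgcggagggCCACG

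These 8 members are 25.8% of the members with a promoter, whereas the element was present in 25 of 27305 genes (0.0916%), the members included. The shorter element ERSE-II, ATTGG and CCACG separated by any 1 base, was found in 3 members (9.68%) and in 0.0696% of genes. Its matches were as follows, with the fixed bases in capitals, and HYOU1 held 2 matches with the same letters:
HERPUD1: ATTGGgCCACG
HYOU1: ATTGGaCCACG
SDF2L1: ATTGGtCCACG

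The XBP1 site TGACGTGG was present in DNAJC10 and HYOU1 (6.45% of members) and in 0.927% of genes, and 1 of these 2 matches overlapped an ERSE-II. A total of 12 members (38.7%) held at least 1 of the 3 elements, against 1.08% of genes. A match describes these letters in this window and does not show a bound site.

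The whole windows of HSPA5, CANX and HERPUD1 are printed because they hold the element of the BiP gene, of the member with the smallest p in the knockdown comparison, and of a degradation gene. Capitals mark the element, which lay 66 to 48 bases before the start in HSPA5, 151 to 133 before it in CANX and 117 to 107 before it in HERPUD1. CANX has 4 windows from different starts, of which 3 hold the element, and 1 of them is printed. It is the same genomic site in all 3, at -189 to -171, at -151 to -133 and at -9 to 9 from their starts. The coordinates are of GRCh38.p14:
HSPA5, chr9:125241294-125241593 (- strand): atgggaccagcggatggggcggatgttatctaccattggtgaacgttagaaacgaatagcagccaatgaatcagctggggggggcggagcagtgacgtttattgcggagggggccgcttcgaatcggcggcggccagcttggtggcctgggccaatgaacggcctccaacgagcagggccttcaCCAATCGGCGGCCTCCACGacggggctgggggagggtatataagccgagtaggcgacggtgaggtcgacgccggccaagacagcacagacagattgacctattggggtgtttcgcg
CANX, chr5:179698679-179698978 (+ strand): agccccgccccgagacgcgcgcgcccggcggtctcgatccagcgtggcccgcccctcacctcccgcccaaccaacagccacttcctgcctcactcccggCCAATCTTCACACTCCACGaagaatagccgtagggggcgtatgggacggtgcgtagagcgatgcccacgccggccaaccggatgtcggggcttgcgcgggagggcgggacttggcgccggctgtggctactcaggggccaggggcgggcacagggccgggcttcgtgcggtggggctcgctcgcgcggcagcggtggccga
HERPUD1, chr16:56931892-56932191 (+ strand): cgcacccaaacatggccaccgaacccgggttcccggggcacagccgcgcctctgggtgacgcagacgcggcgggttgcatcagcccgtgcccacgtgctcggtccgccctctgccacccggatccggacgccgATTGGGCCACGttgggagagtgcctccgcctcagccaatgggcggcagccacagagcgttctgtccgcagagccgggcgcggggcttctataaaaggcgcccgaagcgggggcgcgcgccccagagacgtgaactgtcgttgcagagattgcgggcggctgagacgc

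Values are log2 signals, and each change is sh-ACTL6A minus scramble on the log2 scale with its standard error (SE) from limma. Levels of different genes cannot be set against each other on such arrays. Marker signals below are read against the signal threshold, and list sums between arrays only. ACTL6A itself read 11.92 and 11.82 in scramble and 10.16 and 10.32 in sh-ACTL6A. It was lower on both arrays labelled sh-ACTL6A and fell by 1.63 ± 0.14 (SE, limma adjusted p = 0.0408). ACTL6A was also the single gene called at an adjusted p under 0.05 (0.00814% of 12286). Of 13 epithelial and gastric markers, 10 were above the signal threshold, EPCAM, KRT8, KRT18 and KRT19 among them, while TFF1 and TFF2 were below it. Of the markers with a probe set, 2 of 10 leukocyte, 4 of 6 plasma cell and 4 of 12 fibroblast and endothelial markers reached the threshold. By mean log2 signal, the leukocyte markers above it were CD79A (7.92) and ITGAM (5.87). The plasma cell markers above it were SDC1 (9.20), TNFRSF17 (6.58), PRDM1 (6.34) and IRF4 (6.01). The fibroblast and endothelial markers above it were COL1A1 (8.44), PECAM1 (6.71), THY1 (5.88) and DCN (5.82). PTPRC of the leukocyte list and JCHAIN and MZB1 of the plasma cell list were below it. The summed level of the plasma cell list was 9.48 and 9.97 in scramble and 9.35 and 10.24 in sh-ACTL6A, and that of the leukocyte list was 8.80 and 8.83 against 8.68 and 9.02. The plasma cell sum was carried by SDC1, which epithelial cells also express, at 8.66 and 9.52 in scramble and 8.72 and 9.91 in sh-ACTL6A. In bulk RNA, fewer cells of a type and less RNA per cell cannot be told apart.

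No member of the ER folding and stress machinery passed the adjusted threshold. The smallest limma adjusted p among the 32 tested members was 0.698. At an unadjusted p under 0.05, DNAJB9 was higher and CANX lower, while 5.5% of all genes reached this level (3.21% higher and 2.3% lower). In 21 members the change was above 0 and in 11 below it, and 51.9% of all genes lay above 0. The median change of the members was 0.09, with 0.01 over all genes. The groups did not overlap in 6 members that were higher and 5 that were lower, together 34.4% of those tested, and in 34.6% of all genes (19.3% higher and 15.4% lower). Both the count of members past an unadjusted p and the count without overlap were therefore near the shares of all genes.

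The SE was below the median of all tested genes (0.186) in all but 7 members. The 95% confidence interval lay within a 2-fold change for 32 of 32 members and for 81.7% of all genes tested. Among the 8393 genes at least as bright as the dimmest tested member the share was 95.8%. The interval lay within a 1.5-fold change for 26 members (81.3%), for 47.4% of all genes and for 67.3% of those bright genes. The median log2 signal was 11.47 in the members and 9.54 in all genes. The bright genes were bounded by the dimmest member only and were not matched to the members in signal. The part of signal in the SEs and in these shares was not tested. The lowest bound of any member was -0.92, for ERO1B, and the highest was 0.84, for SIL1. The median size of a change was 0.10 in the members, 0.14 in all genes and 0.12 in the bright genes.

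**Figure D1:**
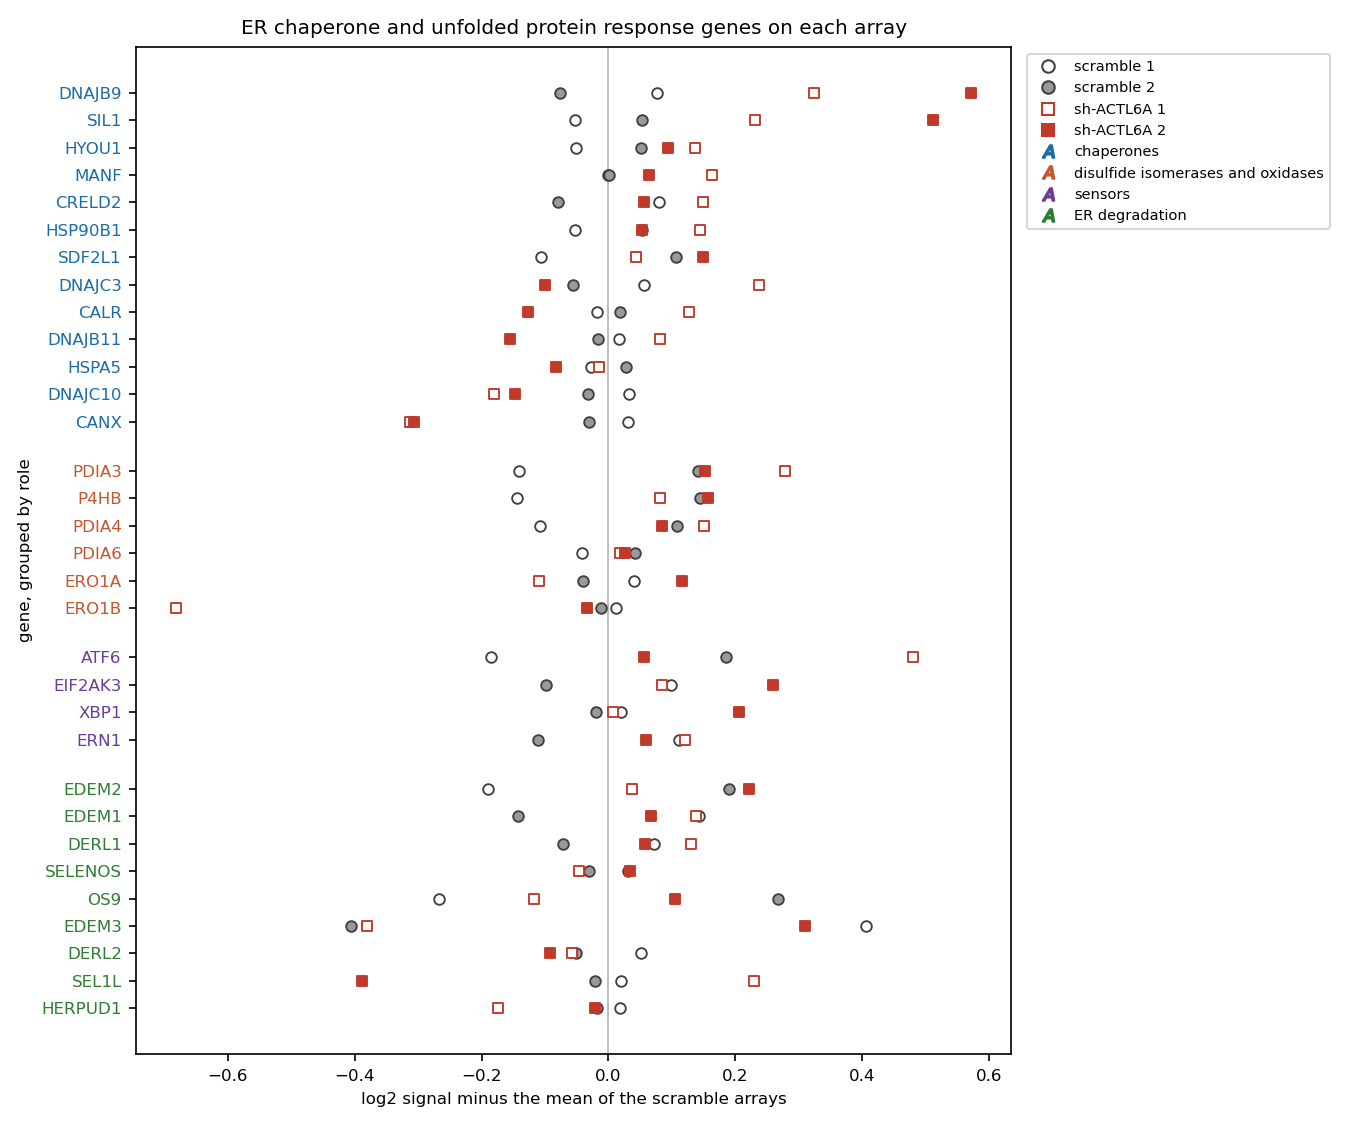
Log2 signal of each of the 32 tested genes on each array, minus the mean of the 2 scramble arrays (horizontal axis), with genes grouped by role (vertical axis); circles are scramble and squares are sh-ACTL6A. Both squares of CANX lie to the left and both squares of DNAJB9 and SIL1 to the right of their circles, and for most genes the groups overlap.

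Among the chaperones, the change was above 0 in 9 of 13 genes and below 0 in 4, with a median of 0.10. None passed the adjusted threshold. Relative to the scramble mean, the class median was 0.14 on the first sh-ACTL6A array and 0.05 on the second. HSPA5, which encodes BiP, the central Hsp70 chaperone and the usual readout of ER stress, read 13.83 and 13.89 in scramble and 13.85 and 13.78 in sh-ACTL6A. The groups overlapped, with a change of -0.05 ± 0.08 (SE, limma adjusted p = 0.967). As a ratio, HSPA5 was at 0.967 of scramble, with a 95% confidence interval of 0.846 to 1.11. A dimmer second probe set of HSPA5 read 8.41 and 8.30 in scramble and 8.67 and 7.85 in sh-ACTL6A, where the sh-ACTL6A arrays lay on either side of scramble. HSP90B1, the ER member of the Hsp90 family (GRP94), read 12.40 and 12.50 in scramble and 12.59 and 12.50 in sh-ACTL6A, a change of 0.10 ± 0.11 (SE). Its other probe set differed by -0.05, so its 2 probe sets had opposite signs.

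CANX encodes calnexin, the membrane lectin that retains newly made glycoproteins until they fold. It read 13.67 and 13.61 in scramble and 13.32 and 13.33 in sh-ACTL6A. Both sh-ACTL6A values were below both scramble values, and the difference of -0.31 ± 0.09 (SE) had a 95% confidence interval of -0.51 to -0.11. The unadjusted p was 0.00799 and the limma adjusted p was 0.698. Of its further probe sets, one read 13.35 and 13.31 in scramble and 12.86 and 13.10 in sh-ACTL6A, and another 12.08 and 12.20 against 11.82 and 11.95. Groups were therefore separated in the same direction in 3 probe sets of CANX. The fourth, at 8.88 and 8.98 against 8.73 and 9.17, overlapped. Its remaining probe set was below the signal threshold. These probe sets were read on the same arrays and are not independent, and groups did not overlap in 33.8% of all probe sets. CALR, the soluble counterpart of calnexin, had an interval of -0.29 to 0.29 around a change of 2.2e-05, and its sh-ACTL6A arrays, at 12.50 and 12.25, lay on either side of its scramble arrays, at 12.36 and 12.39.

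The J-domain co-chaperones, which recruit BiP to its clients, differed in sign. DNAJB9 (ERdj4) read 10.17 and 10.02 in scramble and 10.42 and 10.66 in sh-ACTL6A, and the groups did not overlap. Its difference of 0.45 ± 0.16 (SE) had an unadjusted p of 0.024 and a limma adjusted p of 0.851. Its other probe sets differed by 0.37 and 0.07. The first of these read 8.51 and 8.04 in scramble against 8.53 and 8.74 in sh-ACTL6A, and the second overlapped between groups. DNAJC10 (ERdj5), a disulfide reductase with a J domain, read 11.13 and 11.07 in scramble and 10.92 and 10.95 in sh-ACTL6A, a difference of -0.16 ± 0.13 (SE) without overlap. Over its 5 probe sets the changes ran from -0.24 to 0.02. DNAJC3 and DNAJB11 differed by 0.07 and -0.04, and in both the sh-ACTL6A arrays lay on either side of the scramble arrays.

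SIL1, a nucleotide exchange factor that resets BiP, read 8.01 and 8.12 in scramble and 8.30 and 8.58 in sh-ACTL6A. Both sh-ACTL6A values were higher, and the difference was 0.37 ± 0.20 (SE, limma adjusted p = 0.918). HYOU1, the large chaperone that also exchanges the nucleotide of BiP, differed by 0.12, MANF, a secreted stress-induced factor, by 0.11, and CRELD2 and SDF2L1, both ER stress targets, by 0.10 each. Groups did not overlap for HYOU1 or MANF, with 12.02 and 12.12 against 12.21 and 12.17 for HYOU1. For CRELD2 and SDF2L1 the groups overlapped. These 4 changes were each within the range that holds the central 50% of all genes.

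**Figure D2:**
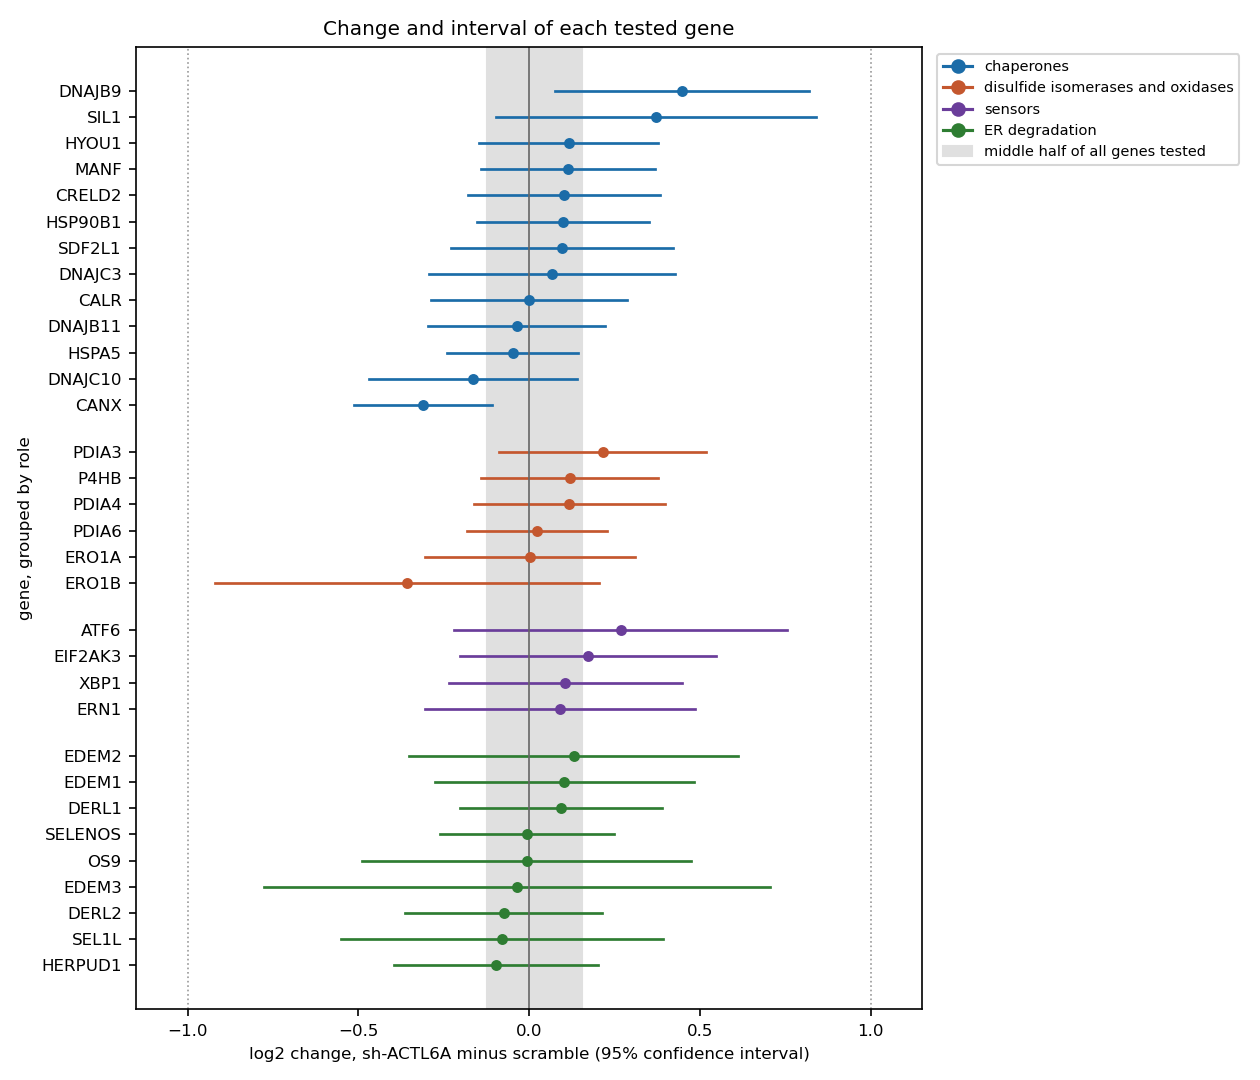
Change in log2 signal, sh-ACTL6A minus scramble (horizontal axis), of each tested gene grouped by role (vertical axis); points are limma estimates, bars are 95% confidence intervals, the grey band runs from the lower quartile (-0.12) to the upper quartile (0.15) of all genes and dotted lines mark a 2-fold change. Every bar lies inside the dotted lines, and only the bars of CANX and DNAJB9 leave out 0.

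In the disulfide isomerases and oxidases, the change was above 0 in 5 of 6 genes, with a median of 0.07 and no gene past the threshold. The scramble arrays themselves lay 0.07 on either side of their mean for the median gene of this class. PDIA3 (ERp57), which works with calnexin and calreticulin on glycoproteins, read 12.18 and 12.46 in scramble and 12.60 and 12.47 in sh-ACTL6A. Both sh-ACTL6A values were the higher ones, by a narrow margin over scramble 2, and the difference was 0.22 ± 0.13 (SE, limma adjusted p = 0.918). Its other probe sets differed by 0.05 and 0.09. P4HB, protein disulfide isomerase itself, read 13.54 and 13.82 in scramble and 13.76 and 13.84 in sh-ACTL6A, overlapping between groups with a difference of 0.12 ± 0.11 (SE).

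A further probe set of P4HB read 9.35 and 11.28 in scramble and 10.68 and 11.74 in sh-ACTL6A, and the remaining one read 8.31 and 9.60 against 8.37 and 10.02. In both, the second array of each group was the higher one. Of 73 member probe sets above the threshold, these were the 2 in which the second array of both groups differed from the first by over 0.5 in the same direction. The 3′ minus 5′ control value of ACTB, a measure of RNA and labelling quality, was 1.63 and 0.78 in scramble and 1.21 and 0.78 in sh-ACTL6A, so it was lower on the second array of each group, and its part in this result was not tested.

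PDIA6, another isomerase of the family, read 13.44 and 13.52 in scramble and 13.50 and 13.51 in sh-ACTL6A, a change of 0.02 ± 0.09 (SE). Its 4 probe sets ran from -0.16 to 0.05. PDIA4 differed by 0.12 and its groups overlapped. ERO1A and ERO1B are the oxidases that recharge the isomerases. ERO1A read 11.72 and 11.64 in scramble and 11.57 and 11.80 in sh-ACTL6A, on either side of scramble, and its probe sets ran from -0.03 to 0.22. ERO1B read 8.75 and 8.73 in scramble and 8.06 and 8.71 in sh-ACTL6A. The difference of -0.36 ± 0.24 (SE, limma adjusted p = 0.930) came from the first sh-ACTL6A array, and without that array it was -0.03. The other probe set of ERO1B read 7.60 and 7.59 against 7.65 and 7.76, a difference of 0.11 in the other direction.

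**Figure D3:**
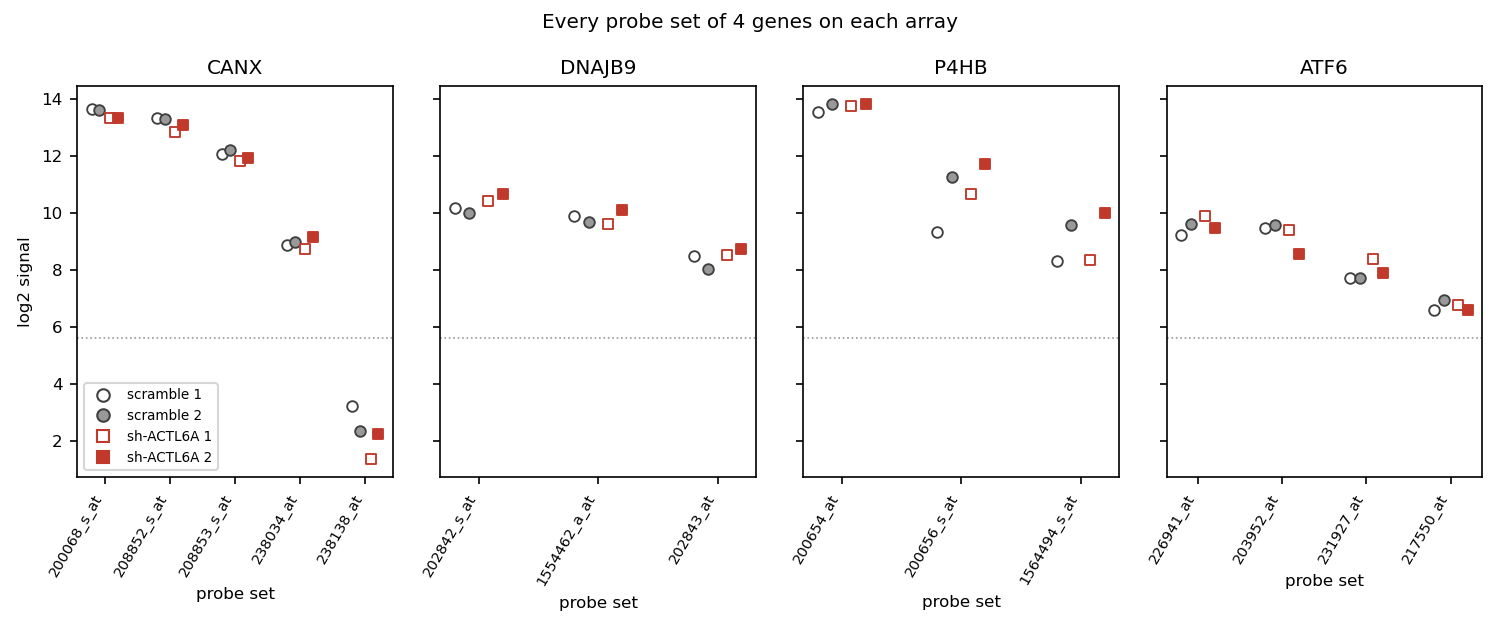
Log2 signal (vertical axis) of every single-symbol probe set (horizontal axis) of CANX, DNAJB9, P4HB and ATF6 on each array; circles are scramble, squares are sh-ACTL6A and the dotted line is the signal threshold of 5.63. In 3 probe sets of CANX both squares lie below both circles, in 2 of P4HB the second array of each group is the higher one, and the probe sets of ATF6 differ in direction (0.27, -0.53, 0.42 and -0.09).

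The sensors ERN1, EIF2AK3 and ATF6 and the transcription factor XBP1 all had changes above 0, at a median of 0.14, and in none of the 4 were the groups separate. ATF6, the sensor that is cut in the Golgi to release a transcription factor, read 9.25 and 9.62 in scramble and 9.92 and 9.49 in sh-ACTL6A. The first sh-ACTL6A array was the highest and the second lay between the scramble arrays, with a difference of 0.27 ± 0.21 (SE, limma adjusted p = 0.941). Another probe set of ATF6 read 9.49 and 9.58 in scramble and 9.43 and 8.58 in sh-ACTL6A, a difference of -0.53. Others differed by 0.42 and -0.09, so its 4 probe sets did not share a direction.

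EIF2AK3, the kinase PERK that slows translation, read 9.96 and 9.76 in scramble and 9.94 and 10.12 in sh-ACTL6A, a difference of 0.17 ± 0.16 (SE). XBP1, whose mRNA is spliced by IRE1, read 10.49 and 10.45 in scramble and 10.48 and 10.67 in sh-ACTL6A, a difference of 0.11 ± 0.15 (SE). ERN1, the IRE1 kinase and endonuclease, read 9.30 and 9.08 in scramble and 9.31 and 9.25 in sh-ACTL6A, a difference of 0.09 ± 0.17 (SE), and its probe sets ran from -0.13 to 0.10. In each of these 3 genes 1 sh-ACTL6A array lay within the scramble range. The signals measure transcript level, and splicing of XBP1, cleavage of ATF6 and phosphorylation of the kinases were not measured.

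In the ER degradation class 9 genes were tested, of which 3 had a change above 0 and 6 below it, with a median of -0.0065. None reached an unadjusted p under 0.05. HERPUD1, a stress-induced scaffold of the degradation complex, read 11.51 and 11.47 in scramble and 11.32 and 11.47 in sh-ACTL6A, a difference of -0.10 ± 0.13 (SE, limma adjusted p = 0.962). The second sh-ACTL6A array was nearly level with the lower scramble array. SEL1L, the scaffold that stabilises the ubiquitin ligase, read 11.20 and 11.16 in scramble and 11.40 and 10.79 in sh-ACTL6A, so its sh-ACTL6A arrays lay on either side of scramble. Its 4 probe sets ran from -0.27 to 0.60.

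The EDEM proteins trim or recognise mannose on misfolded glycoproteins, and their transcripts varied as much within groups as between them. EDEM1 read 10.17 and 9.88 in scramble and 10.16 and 10.09 in sh-ACTL6A, a difference of 0.10 ± 0.16 (SE). EDEM3 read 9.41 and 8.59 in scramble and 8.62 and 9.31 in sh-ACTL6A, so each group spanned most of the range, with a difference of -0.03 ± 0.32 (SE). EDEM2 differed by 0.13 with overlapping groups. OS9, a lectin that delivers clients to SEL1L, read 9.80 and 10.33 in scramble and 9.95 and 10.17 in sh-ACTL6A, inside the scramble range, and its other probe set differed by 0.08.

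DERL1 and DERL2 belong to the Derlin family at the exit channel, and SELENOS is a selenoprotein that links it to the extraction ATPase. DERL1 read 11.56 and 11.42 in scramble and 11.62 and 11.55 in sh-ACTL6A, a difference of 0.09 ± 0.13 (SE), and its 3 probe sets ran from 0.09 to 0.13. DERL2 differed by -0.07. SELENOS read 12.30 and 12.24 in scramble and 12.22 and 12.30 in sh-ACTL6A, a difference of -0.0064.

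Members with several probe sets above the threshold numbered 20, and in 11 of them the probe sets did not share a sign. On the probe set level, 1 of the members' probe sets was higher and 2 were lower at an unadjusted p under 0.05, where 5.01% of all probe sets reached it, and 0 passed the limma adjusted threshold over all 54613. Some probe sets of HSP90B1, CALR, PDIA6, OS9 and EDEM3 carry the suffix x_at, which marks probes that can also match other transcripts.

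Members with and without an element in the promoter had overlapping changes. The 8 tested members with an ERSE had changes above 0 in 5 and a median of 0.01, and the 22 tested members with a promoter but no ERSE had 14 above 0 and a median of 0.09. With any of the 3 elements, 7 of 12 were above 0, at a range from -0.36 to 0.12, and without one 12 of 18 were, with a median of 0.10. Over all tested genes with a promoter, the median was 0.00075 with an element and 0.0093 without.

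Genes around the members were read from 5 lists of the same pathways, with 98 entries of which 88 were tested. The change was above 0 in 42 and below 0 in 46, with a median of -0.01, and none passed the adjusted threshold (smallest limma adjusted p = 0.619). At an unadjusted p under 0.05, 2 of the 88 were higher and 2 lower, where 3.21% of all genes were higher and 2.3% lower. These counts were near the shares of all genes.

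The PERK arm (10 genes tested) had a median of -0.10, with 3 changes above 0 and 7 below. CHAC1, a glutathione-degrading enzyme and a late ATF4 target, read 8.29 and 8.60 in scramble and 8.14 and 7.51 in sh-ACTL6A, both lower, by -0.62 ± 0.26 (SE, limma adjusted p = 0.906). PPP1R15B, a regulator that restores translation, read 11.56 and 11.48 against 11.79 and 11.73, and TRIB3, a pseudokinase of the stress response, read 10.57 and 10.82 against 10.22 and 10.54. The transcription factors CEBPB, ATF3, ATF4 and DDIT3 (CHOP) of this list differed by -0.21, -0.18, -0.14 and -0.07. The groups did not overlap for CEBPB and ATF4 and overlapped for ATF3 and DDIT3.

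In the ATF6 and IRE1 arms (9 genes tested) the median was 0.01. MBTPS2, the site-2 protease that releases the active fragment of ATF6, read 11.20 and 10.83 in scramble and 9.64 and 10.38 in sh-ACTL6A. Both sh-ACTL6A values were lower, and the difference of -1.01 ± 0.25 (SE) had an unadjusted p of 0.00443 and a limma adjusted p of 0.619. Leaving out each array in turn moved it between -1.38 and -0.64. Its second probe set differed by -0.49 and a dim further one by -0.75. SERP1, which protects newly made membrane proteins, differed by -0.13, and CREB3L4, a transcription factor related to ATF6, by 0.23.

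Further folding enzymes (30 tested) had a median of 0.06. SERPINH1, the collagen chaperone Hsp47, read 10.69 and 10.70 in scramble and 11.74 and 10.99 in sh-ACTL6A, a difference of 0.66 ± 0.23 (SE, limma adjusted p = 0.846). It was set mainly by the first sh-ACTL6A array, and was 0.29 without it. TMX4, a membrane thioredoxin-like protein, differed by 0.31, but its other probe set above the threshold differed by 0.02. DNAJB14, a membrane J protein, differed by -0.28, and its other probe sets by -0.37 and -0.29. Further degradation genes (21 tested) had a median of -0.06. JKAMP, a membrane protein that links the degradation complex to the proteasome, read 12.07 and 11.76 in scramble and 10.64 and 11.81 in sh-ACTL6A. Its difference of -0.69 ± 0.33 (SE) rested on the first sh-ACTL6A array and was -0.10 without it. AUP1 and UBXN4, other membrane components, differed by -0.34 and -0.35. The difference of UBXN4 rested on the first sh-ACTL6A array and was -0.0096 without it, and that of AUP1 rested on the second and was -0.09 without it.

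Genes of translocation and retrieval (18 tested) had a median of -0.01. SPCS3, a subunit of the signal peptidase, read 11.68 and 11.54 in scramble and 12.07 and 11.98 in sh-ACTL6A, both higher, by 0.42 ± 0.12 (SE, unadjusted p = 0.00956, limma adjusted p = 0.727). Its other probe sets differed by 0.06 and -0.11. KDELR3, a receptor that returns escaped ER proteins, differed by -0.23, and SSR4, a translocon-associated subunit, by 0.12.

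**Figure D4:**
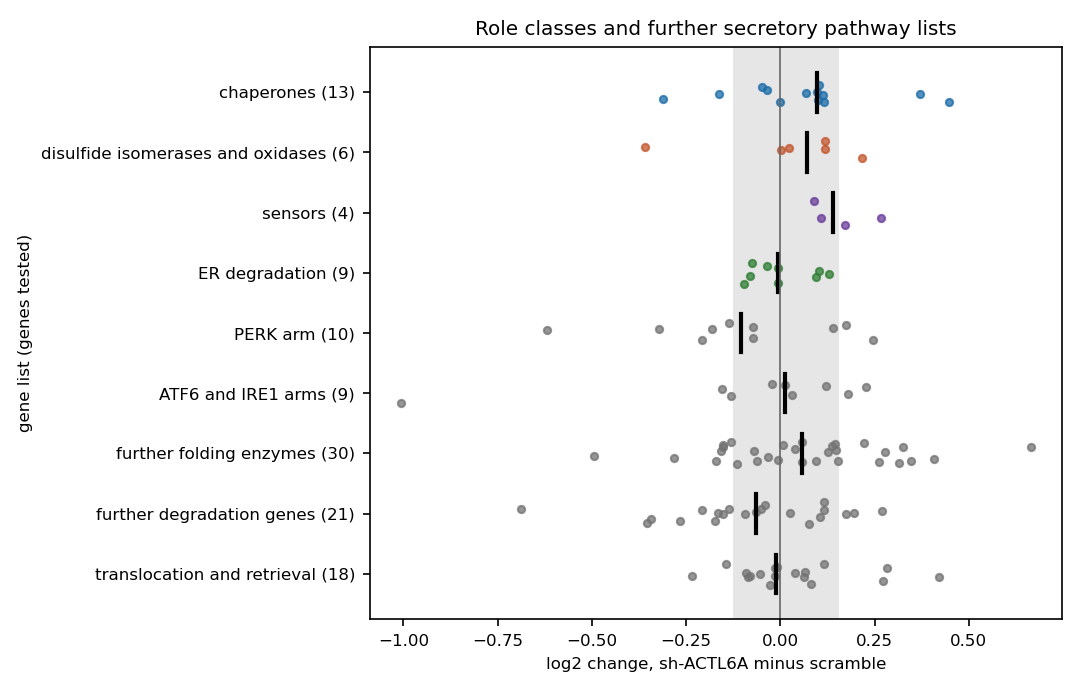
Change in log2 signal, sh-ACTL6A minus scramble (horizontal axis), of each tested gene in the 4 role classes and the 5 further lists (vertical axis, with the number tested); black bars are medians and the grey band runs between the quartiles of all genes (-0.12 to 0.15). The medians of all 9 lists, from -0.10 for the PERK arm to 0.14 for the sensors, lie inside the band. The band is that of single genes, so a list median inside it does not show that the list was unshifted.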

How the data were processed

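SNU638 cells with scramble or sh-ACTL6A were each measured on 2 arrays. The authors deposited log2 signals of 54675 probe sets per array. MAS5 is the tool that the submitters' processing notes give, with the version not given in the sources used here. It treats each array alone, and signals of dim probe sets are noisy. The trimmed linear mean (2% cut from each end) was 500 on every array, and the values were used as deposited.

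A gene was represented by its brightest probe set with 1 symbol. Genes whose mean reached the 50th percentile of non-control probe sets, 12286 in all, entered a fit in limma 3.58.1 under R 4.3.3 (lmFit, eBayes with intensity trend, 7.65 degrees of freedom), 2-sided, with Benjamini-Hochberg adjustment and a threshold of 0.05. The number of arrays limits the precision. An exact permutation test of 2 against 2 arrays cannot give a p below 0.333, so none was run. Per-array values are given for ACTL6A, for the 3 members of each class with the smallest p, for the brightest member of each class, for BiP, XBP1 and the sensors, and for members whose probe sets differ in sign. For each further list the 3 genes with the smallest p are named, and genes named beyond this rule were chosen after their values were seen. The members, lists and tests were chosen with earlier results of these data known. The fit was tested on simulated data. Promoters came from RefSeq (GRCh38.p14). Alternatives tried were median centring, quantile normalisation, no filter, a filter at the 75th percentile, the mean of all probe sets, an offset of 16 on the linear signal, no trend, a replicate block, the methods' t-test, every probe set tested and leaving out each array.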

Additional observations from a re-analysis of the deposited data

How the results depend on the processing

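Under every alternative run, 0 members were called higher and 0 lower. Leaving out 1 array at a time left between 0 and 2 members at an unadjusted p under 0.05 in each direction. The count of higher members was 0 with the mean of all probe sets and with the methods' t-test. The count of lower members was 0 with median centring, with the mean of all probe sets and without the trend, and 2 with the methods' t-test. With every probe set tested, the lower count was 2 probe sets, both of CANX. The median change of the members was 0.12 with median centring, which moved the median of all genes to 0.04, and 0.060 over probe sets with every one tested. It ranged from 0.023 to 0.083 with an array left out. The chaperone median was 0.018 with every probe set tested and 0.023 to 0.14 with an array left out. That of the disulfide class ran from -0.0048 to 0.14, of the sensors from 0.08 to 0.16 and of ER degradation from -0.046 to 0.058, and ER degradation read 0.10 with the mean of all probe sets and 0.072 with every probe set tested. Both of these ER degradation values take in probe sets below the signal threshold, as 18 of the 23 probe sets of this class were above it. The correlation of same-numbered deviations was 0.0565. With 2 arrays a group this value cannot show whether the replicate numbers pair the arrays. With the replicate block 0 members were called, ACTL6A had a limma adjusted p of 0.0070 and CANX 0.483. Over all genes the block gave 2 calls in place of 1, ACTL6A and PAFAH1B2 (-1.06, limma adjusted p = 0.0234), and it changed no call among the members or further genes.

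ACTL6A stayed lower throughout (-1.71 to -1.55 with an array left out) and was not called after quantile normalisation (-1.64, limma adjusted p = 0.0522), with no filter (-1.63, 0.0797), without the trend (-1.63, 0.556), with every probe set tested (-1.63, 0.281) or by the methods' t-test (-1.63, 0.844). It was also lost without scramble replicate 1 or 2 (adjusted p = 1.0 and 0.567). Direction turned with the mean of all probe sets for PDIA6 (-0.014), SEL1L (0.14), HERPUD1 (0.45) and OS9 (0.035), with median centring for OS9 (0.025) and SELENOS (0.026), and with quantile normalisation for SELENOS (0.010). The turn of HERPUD1 came from a second probe set with a mean log2 signal of 2.49, below the threshold, which differed by 0.998. With an array left out it turned in 14 members: CALR (-0.13 to 0.13), DNAJB11 (-0.16 to 0.082), DNAJC3 (-0.10 to 0.24), SDF2L1 (-0.010 to 0.20), PDIA6 (-0.020 to 0.064), P4HB (-0.025 to 0.26), ERO1A (-0.11 to 0.12), ERN1 (-0.021 to 0.20), SEL1L (-0.39 to 0.23), EDEM1 (-0.039 to 0.25), EDEM2 (-0.060 to 0.32), EDEM3 (-0.44 to 0.37), OS9 (-0.27 to 0.26) and SELENOS (-0.046 to 0.033). The other tested members kept their direction, among them CANX (-0.34 to -0.28) and DNAJB9 (0.32 to 0.57). For CANX, DNAJB9 and ACTL6A the groups did not overlap, so leaving out 1 array could not turn the direction. Over all genes, calls came to 94 higher and 241 lower in the absence of sh-ACTL6A replicate 2, and to 141 and 260 in the absence of replicate 1. Among these calls were further genes of the pathway. MBTPS2 (-1.38), SERPINH1 (1.04), JKAMP (-1.27) and UBXN4 (-0.70) passed without sh-ACTL6A replicate 2, and AUP1 (-0.60) without sh-ACTL6A replicate 1, where the spread of the remaining single array was taken from the scramble arrays. The cause of these shifts was not tested.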
